A study of Mus musculus with 6 samples.

Results

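The circadian clock genes described here are 10 genes of the mouse molecular clock, namely *Arntl* (also called *Bmal1*), *Clock*, *Per1*, *Per2*, *Per3*, *Cry1*, *Cry2*, *Nr1d1*, *Nr1d2* and *Dbp*. They were taken by name from RNA sequencing of injured neonatal Achilles tendon, and all 10 were found among the 18099 genes of the table. Repair tissue was taken 7 days after the tendon was cut. The conditional knockout group (cKO) held 3 mice of genotype *LysM-Cre; Ampkα1 fl/fl*, in which Cre made from the lysozyme M locus deletes floxed *Ampkα1* in myeloid cells, and the control group held 3 littermates, *Ampkα1 fl/fl* without Cre. Both groups carried the floxed alleles and both had the Achilles tendon of each leg cut. The mice were kept under alternating light and dark of equal length, and the labels give no hour of collection for any mouse. RNA came from whole tissue, so that fewer cells of a type and less RNA per cell cannot be told apart. Whether replicates came from separate litters or days is not stated.

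In most mammalian cells, BMAL1 (the product of *Arntl*) pairs with CLOCK or NPAS2 and switches on genes through E-box elements. Among these are the *Per* and *Cry* genes, whose products return to the nucleus and repress the pair, and *Nr1d1* and *Nr1d2*, whose products REV-ERBα and REV-ERBβ repress *Arntl* through ROR elements. DBP, with its relatives HLF and TEF, carries the rhythm to other genes through D-box elements. In peripheral tissues of adult mice, *Arntl* and *Npas2* transcripts are highest around the end of the night, *Nr1d1*, *Dbp* and *Per3* during the day and *Per1* and *Per2* around dusk. AMPK is known to phosphorylate CRY1 and mark it for degradation. *Per1* is also induced directly by glucocorticoids and by other acute stimuli.

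The elements named above can be read in the promoters of 3 clock genes whose groups did not overlap in the comparison given further on. RefSeq promoters (build GRCm38.p6) were available for 9 of the 10 genes with 13 start sites, *Per2* being the gene not matched, and the 250 bases before each start were searched on both strands for CACGTG (E-box), TTANGTAA (D-box) and AGGTCA (the core of the ROR and REV-ERB element). *Per3* is shown because it is the one member with D-box matches, and *Per1* and *Cry1* because they have an E-box. Capitals mark the matches, each sequence runs 5′ to 3′ on the strand of its gene, and no 2 matches overlap.
Per3, chr4:151044666-151044915, minus strand: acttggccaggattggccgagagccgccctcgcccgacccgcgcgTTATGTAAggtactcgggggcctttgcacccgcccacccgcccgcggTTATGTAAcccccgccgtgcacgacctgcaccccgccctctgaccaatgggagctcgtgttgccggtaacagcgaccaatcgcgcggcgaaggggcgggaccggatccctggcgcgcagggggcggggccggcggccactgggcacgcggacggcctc
Per1, the first of its 2 start sites, chr11:69098699-69098948, plus strand: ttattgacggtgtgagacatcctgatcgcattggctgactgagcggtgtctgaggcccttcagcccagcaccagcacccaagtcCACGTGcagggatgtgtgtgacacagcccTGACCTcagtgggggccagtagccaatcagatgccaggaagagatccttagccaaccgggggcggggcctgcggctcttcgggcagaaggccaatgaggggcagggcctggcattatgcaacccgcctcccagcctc
Cry1, chr10:85185055-85185304, minus strand: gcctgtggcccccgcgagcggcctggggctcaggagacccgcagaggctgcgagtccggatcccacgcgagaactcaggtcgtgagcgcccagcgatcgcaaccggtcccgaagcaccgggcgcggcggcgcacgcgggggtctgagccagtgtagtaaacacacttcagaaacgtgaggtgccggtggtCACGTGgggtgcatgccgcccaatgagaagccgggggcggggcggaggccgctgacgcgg

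The D-box matches of *Per3* begin 205 and 158 bases before its start, the E-box of *Per1* begins 166 bases and that of *Cry1* 60 bases before the start. The capitals at 137 bases in *Per1* are the ROR core on the other strand. Over 32851 RefSeq promoter windows of the same length, 6.02% held the E-box, 2.06% the D-box and 14.0% the ROR core. Counts for the 9 clock genes are per gene, with a match at any start site. Of them 2 held the E-box, 1 the D-box and 3 the ROR core (*Per1*, *Nr1d2* and 1 of 3 start sites of *Clock*). Genes with several start sites had more chances of a match, so these counts are not directly comparable with the percentages per window. The windows of *Arntl*, *Dbp*, *Nr1d1* and *Cry2* held none of the 3 motifs, which says only that these letters are not in those windows.

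Library totals lay between 18076812 and 19479895 reads, and all 10 clock genes were well covered, with 205 reads or more in every library. *Lyz2*, the gene of the locus that carries Cre, had 7372 to 7778 reads in the control libraries and 8 to 15 reads in the cKO libraries, so this locus separated the groups as labelled. The cKO mice thus differed from controls in *Lyz2* RNA and in Cre as well as in *Ampkα1*, and their parts cannot be told apart. The targeted gene *Prkaa1*, which encodes AMPKα1, was at 38.2 ± 0.842 CPM and 36.2 ± 4.07 CPM (SD, n = 3 each) (log2 ratio -0.08, SE 0.09), with overlapping groups. That value sums all transcripts and cell types of the tissue and does not check the deletion in myeloid cells. CPM here is the count of a gene relative to the library total, scaled between libraries with TMM factors, and each log2 ratio is cKO over control with its standard error (SE). The tendon genes *Tnmd*, *Fmod*, *Scx* and *Col1a1* were expressed in all libraries, but skeletal muscle transcripts differed widely between them. The summed level of 25 muscle genes was 270.9, 796.8 and 4340 CPM in control replicates 1, 2 and 3 and 4702, 1463 and 12780 CPM in cKO replicates 1, 2 and 3.

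Compared per transcript length, in TPM, the clock genes spanned a narrow range of levels. Averaged over the 6 libraries, *Nr1d2* was highest at 29.5 TPM, followed by *Cry2* (27.3 TPM), *Dbp* (23.6 TPM), *Nr1d1* (23.5 TPM), *Arntl* (19.1 TPM), *Per1* (17.8 TPM) and *Cry1* (17.3 TPM). *Per3* (10.3 TPM), *Per2* (9.94 TPM) and *Clock* (9.19 TPM) were lowest. The order was not the same in each group: *Per3* averaged 11.8 TPM in controls, above *Per2* (9.97 TPM), and 8.88 TPM in cKO, below *Per2* (9.91 TPM), and the mean of *Dbp* was above that of *Nr1d1* in controls and below it in cKO. Each neighbouring pair in the order of the overall means overlapped across libraries, except that the lowest value of *Cry1* (15.9 TPM) was above the highest of *Per3* (13.7 TPM). Within a gene, the highest library was between 1.17 times (*Cry2*) and 1.71 times (*Dbp*) the lowest in CPM.

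To ask whether loss of myeloid *Ampkα1* went with a change of the clock in the repairing tendon, the groups were compared with edgeR over 14261 genes. None of the 10 clock genes passed (0 genes at an adjusted p under 0.05, against 0.898% of all genes tested). At an unadjusted p under 0.05 there were 4 clock genes, *Arntl* and *Per1* with higher values in the cKO group and *Dbp* and *Per3* with lower values, where 14.5% of all genes reached that level. DESeq2 called 1 clock gene, *Per3* (adjusted p = 0.0482), against 4.81% of all genes. The count of clock genes stayed at 0 with the replicate number as a blocking term (0.330% of all genes called), with a skeletal muscle score as covariate (0.540%), with limma on log2(TPM + 0.5) or log2(TPM + 0.1) (0.484% and 0.428%), with RLE or upper-quartile factors (0.912% and 0.827%), and with no filter or a filter of 10 reads in every sample (0.778% and 1.16%). It was also 0 without control replicate 1, 2 or 3 (0.0694%, 0.0556% and 0.167% of all genes called) and without cKO replicate 1, 2 or 3 (0.0833%, 1.91% and 0.417%). The 2 groups did not overlap in 6 clock genes, *Arntl*, *Per1* and *Cry1* being higher and *Dbp*, *Per3* and *Nr1d1* lower, compared with 20.4% of all genes tested in either direction (8.94% higher and 11.4% lower). The median absolute log2 ratio of the clock genes was 0.161, against 0.110 over all genes.

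**Figure D1:**
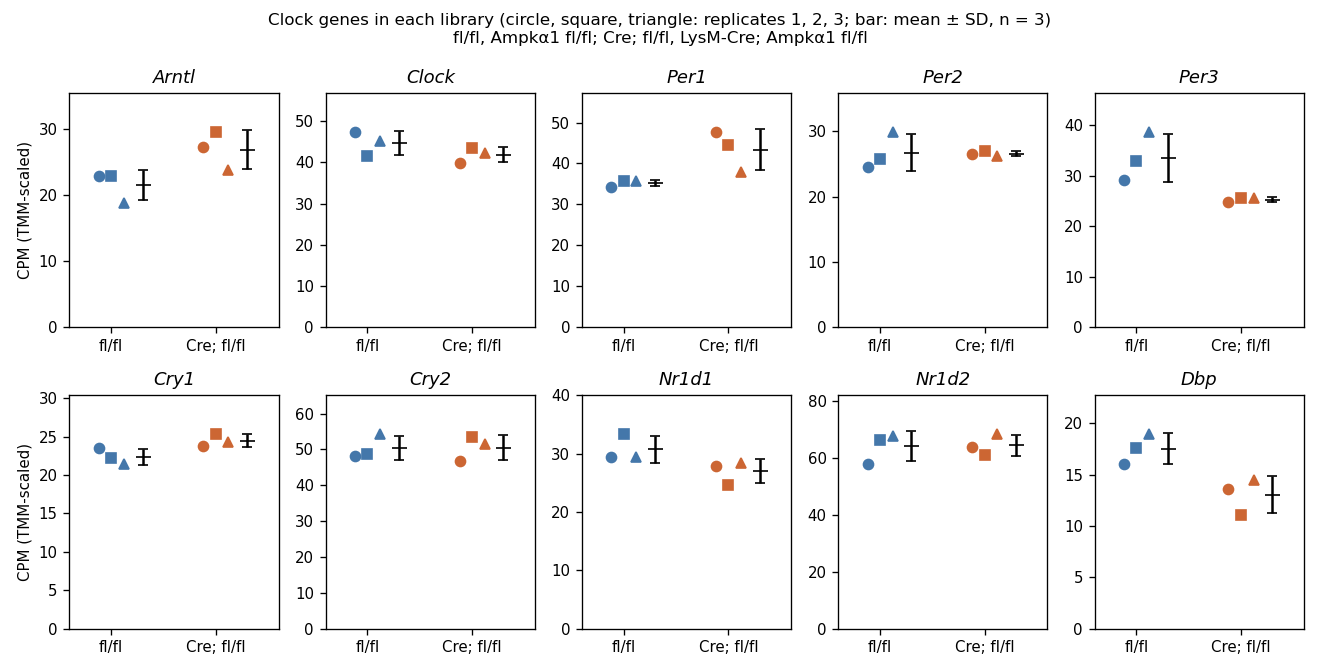
Expression of the 10 clock genes in each library, in TMM-scaled CPM from 0, with circles, squares and triangles for replicates 1, 2 and 3 and the mean ± SD (n = 3) beside them. The cKO points lie above all control points for *Arntl*, *Per1* and *Cry1* and below them for *Dbp*, *Per3* and *Nr1d1*.

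Of the activators, *Arntl* (NCBI Gene 11865, chromosome 7) had 22.8, 22.8 and 18.8 CPM in control mice and 27.3, 29.5 and 23.7 CPM in cKO mice. All 3 cKO libraries were above all 3 controls, and the gap between the nearest libraries, 23.7 against 22.8 CPM, was small. The log2 ratio was 0.32 (SE 0.12, 95% interval 0.05 to 0.60, edgeR adjusted p = 0.265). *Clock* (chromosome 5), whose product is the partner of BMAL1, had 47.4, 41.6 and 45.1 CPM against 39.8, 43.4 and 42.4 CPM. Its groups overlapped, and the interval of its log2 ratio ran from -0.26 to 0.07. In TPM, the ratio of *Arntl* to *Clock* was 1.80, 2.03 and 1.54 in the control libraries and 2.56, 2.48 and 2.12 in the cKO libraries, without overlap.

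The 3 *Per* genes, which encode the PERIOD repressors, had values that pointed in different directions. *Per1* (NCBI Gene 18626, chromosome 11) had 34.3, 35.7 and 35.6 CPM in control mice and 47.7, 44.6 and 37.9 CPM in cKO mice. The controls lay close together, and replicates 1 and 2 of the cKO group stood well above them, with replicate 3 nearer. Its log2 ratio was 0.30 (SE 0.09, 95% interval 0.09 to 0.52, edgeR adjusted p = 0.191). *Per3* (NCBI Gene 18628, chromosome 4), the gene with the D-box matches shown above, had 29.1, 32.9 and 38.7 CPM against 24.7, 25.5 and 25.5 CPM. Here the cKO libraries were nearly equal and the spread lay among the controls, of which replicate 3 was highest. The log2 ratio was -0.41 (SE 0.11, 95% interval -0.67 to -0.16, edgeR adjusted p = 0.146). *Per2* (chromosome 1) had 24.5, 25.7 and 29.9 CPM against 26.6, 27.0 and 26.2 CPM. Its groups overlapped and its interval was -0.22 to 0.21.

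The cryptochromes, which repress BMAL1 and CLOCK together with the PERIOD proteins, differed little. *Cry1* (chromosome 10) had 23.5, 22.2 and 21.4 CPM in control mice and 23.8, 25.4 and 24.3 CPM in cKO mice, a log2 ratio of 0.13 (SE 0.07, 95% interval -0.04 to 0.30, edgeR adjusted p = 0.457). The groups were separated by only the step from 23.5 to 23.8 CPM. *Cry2* (chromosome 2) had 48.1, 48.8 and 54.4 CPM against 46.7, 53.4 and 51.4 CPM, with an interval of -0.18 to 0.18. Protein was not measured.

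Of the REV-ERB genes, *Nr1d1* (NCBI Gene 217166, chromosome 11) had 29.4, 33.4 and 29.4 CPM in control mice and 27.8, 24.6 and 28.4 CPM in cKO mice. Every cKO library was below every control, with a log2 ratio of -0.19 (SE 0.09, 95% interval -0.40 to 0.02, edgeR adjusted p = 0.385). *Nr1d2* (chromosome 14), the more abundant of the pair, had 57.9, 66.3 and 67.7 CPM against 63.6, 61.0 and 68.4 CPM. Its groups overlapped, and the interval was -0.18 to 0.19.

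*Dbp* (NCBI Gene 13170, chromosome 7), the output factor that binds D-box elements, was, with *Per3*, the clock gene with the largest log2 ratio in size; the 2 differed by less than their SE. It had 16.0, 17.6 and 19.0 CPM in control mice and 13.6, 11.1 and 14.5 CPM in cKO mice. All cKO libraries were below all controls, replicate 2 of the cKO group being lowest. The group means were 17.6 ± 1.47 CPM and 13.0 ± 1.76 CPM (SD, n = 3 each), a log2 ratio of -0.43 (SE 0.12, 95% interval -0.72 to -0.13, edgeR adjusted p = 0.183). For *Dbp*, *Per3*, *Nr1d1*, *Arntl*, *Per1* and *Cry1* a two-sided exact permutation test returned p = 0.1, the smallest that 3 mice against 3 allow.

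Some of these genes share bases with a neighbour, and it is not stated whether the libraries kept strand. In GENCODE, 737 bases of *Dbp* lie opposite *Sphk2* and 1075 bases of *Nr1d1* lie opposite *Thra*, so reads from those stretches cannot be told apart without strand. *Sphk2* had a log2 ratio of -0.10 (SE 0.07), and *Thra* one of -0.07 (SE 0.06). *Camta1*, on the same strand as *Per3* and annotated across it, had 4.32 to 8.97 CPM in the 6 libraries. The main *Dbp* transcript took 71.3% of its reads, while the *Arntl* reads were split over 13 transcripts, and values here are sums over transcripts.

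**Figure D2:**
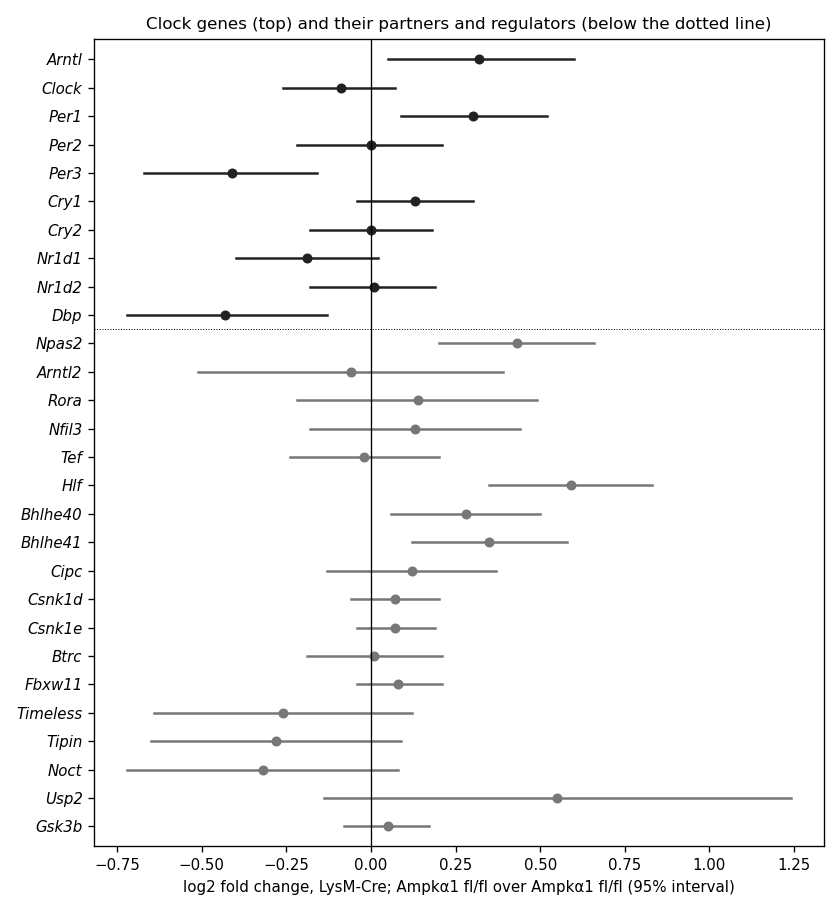
Log2 ratio, cKO (*LysM-Cre; Ampkα1 fl/fl*) against control, of the 10 clock genes (black) and of partners and regulators (grey), from edgeR, with 95% intervals that are not adjusted for the number of genes. The intervals of *Arntl* (0.05 to 0.60), *Per1* (0.09 to 0.52), *Per3* (-0.67 to -0.16) and *Dbp* (-0.72 to -0.13) leave out 0; the AMPK genes *Prkaa1* and *Prkaa2* and some other members of the list are not drawn.

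Other genes of the pathway came from a list of 25 partners and regulators, of which 24 were tested and *Rorb* was too scarce. In edgeR 0 passed, 4 had an unadjusted p under 0.05, all with higher values in cKO (14.5% of all genes reached that level), and DESeq2 called 2 (*Hlf* and *Npas2*, both higher, against 4.81% of all genes). The median log2 ratio of the list was 0.071, against -0.002 over all genes. *Hlf*, which encodes a relative of DBP that binds the same D-box elements, had 9.21, 9.29 and 9.32 CPM in control mice and 13.6, 12.9 and 15.4 CPM in cKO mice. Its groups did not overlap, in the opposite direction to *Dbp* (log2 ratio 0.59, SE 0.10, 95% interval 0.35 to 0.83, edgeR adjusted p = 0.0595). *Tef*, the third gene of that family, had 95.4, 103 and 113 CPM against 108, 91.2 and 108 CPM, with overlapping groups and an interval of -0.24 to 0.20.

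*Npas2*, whose product can replace CLOCK as the partner of BMAL1 and which enters the phase contrast given further on, had 25.9, 23.5 and 20.3 CPM in control mice and 30.2, 32.2 and 31.3 CPM in cKO mice. The groups did not overlap, as for *Arntl* (log2 ratio 0.43, SE 0.10, edgeR adjusted p = 0.113). The repressors *Bhlhe40* and *Bhlhe41*, which compete for E-boxes and were singled out after their values were seen, were the other members of the list at an unadjusted p under 0.05. *Bhlhe41* had 26.9, 30.7 and 24.1 CPM against 33.3, 36.2 and 34.6 CPM (log2 ratio 0.35, SE 0.10, edgeR adjusted p = 0.171), and *Bhlhe40* had a log2 ratio of 0.28 (SE 0.09, edgeR adjusted p = 0.233). The deubiquitinase gene *Usp2* (0.55, SE 0.29) and the AMPKα2 gene *Prkaa2* (1.26, SE 0.79) had larger estimates with overlapping groups. *Prkaa2* was highest, at 15.3 CPM, in the library richest in muscle transcripts. The casein kinase genes *Csnk1d* and *Csnk1e*, which phosphorylate PERIOD proteins, each had a log2 ratio of 0.07.

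**Figure D3:**
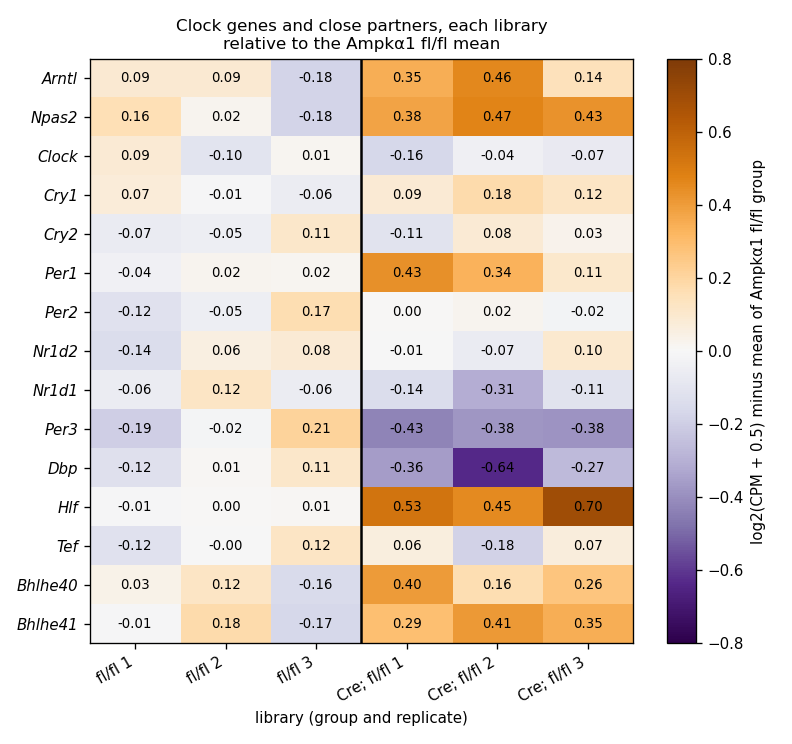
Log2(CPM + 0.5) of clock genes and close partners in each of the 6 libraries, minus the mean of the control group, in colour and figures. *Arntl*, *Npas2*, *Per1*, *Cry1*, *Hlf*, *Bhlhe40* and *Bhlhe41* are above that mean in all 3 cKO libraries, and *Dbp*, *Per3*, *Nr1d1* and *Clock* are below it.

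Because the hour of collection is not given, each library was described by a phase contrast, the mean log2(CPM + 0.5) of *Dbp*, *Nr1d1*, *Nr1d2*, *Per1*, *Per2* and *Per3* minus that of *Arntl*, *Clock* and *Npas2*. In a rhythmic tissue, genes with day or evening peaks raise this value and genes with late-night peaks lower it. The peak times given above are for adult mice and leave out *Clock* and *Nr1d2*. Whether they hold in neonatal tendon was not tested. It was -0.04, 0.21 and 0.39 in control replicates 1, 2 and 3 and -0.08, -0.28 and -0.08 in cKO replicates 1, 2 and 3. The group means were 0.19 ± 0.21 and -0.15 ± 0.12 (SD, n = 3 each), a difference of -0.33. The groups did not overlap, but control replicate 1, at -0.04, lay close to cKO replicates 1 and 3, at -0.08, and the controls covered a wider range than the cKO libraries. Since *Per1* can be induced acutely, the contrast was also taken without it, which gave a difference of -0.42. *Per1* had the highest log2 ratio of the genes with day or evening peaks used here. Leaving it out therefore had to make the difference more negative, and the -0.42 is no separate support. *Npas2*, which is not one of the 10 clock genes, was singled out after its values were seen. It had the largest log2 ratio of the 3 subtracted genes, and without it the difference was -0.23. The values were then -0.15, 0.08 and 0.22 in controls and -0.12, -0.33 and -0.08 in cKO, so that the groups overlapped and their separation rested on *Npas2*.

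The ratios of *Per2*, *Nr1d2* and *Per1* to *Arntl* did not separate the groups. In TPM, *Per2* to *Arntl* was 0.502, 0.546 and 0.753 in control libraries and 0.455, 0.443 and 0.507 in cKO libraries. The lowest control, replicate 1 (0.502), was just below cKO replicate 3 (0.507). *Dbp* to *Arntl* was 1.34, 1.53 and 1.96 against 0.987, 0.741 and 1.19, which restates the separate values of the 2 genes, since each already lay apart in the opposite direction. A difference in the hour of collection between the groups and an effect of the genotype cannot be told apart in this design.

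**Figure D4:**
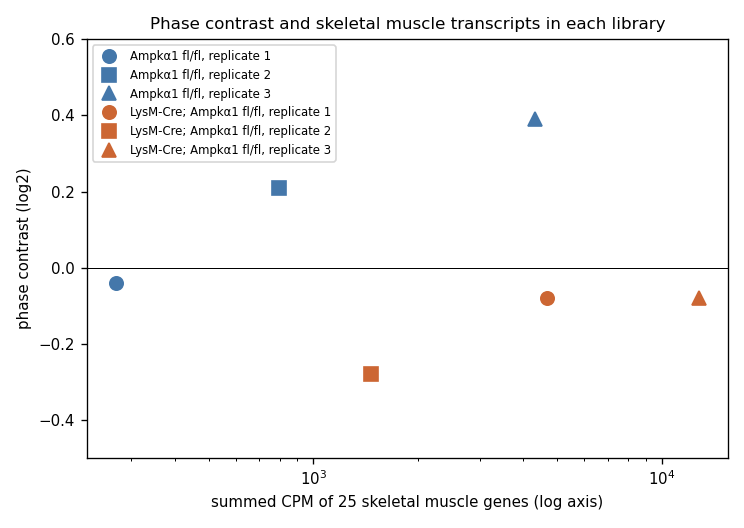
Phase contrast of each library (log2 scale) against the summed CPM of 25 skeletal muscle genes on a log axis, with circles, squares and triangles for replicates 1, 2 and 3. The blue control (*Ampkα1 fl/fl*) points lie between -0.04 and 0.39 and the orange cKO points between -0.28 and -0.08, and in each group the library with the least muscle transcript has the lowest contrast. Without *Npas2* in the contrast the groups overlap.

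Skeletal muscle has a strong clock of its own, and the muscle sums were set beside the phase contrast. In each group the library with the lowest muscle sum (control replicate 1 and cKO replicate 2) also had the lowest phase contrast. Replicates 1 and 3 of the cKO group both had a contrast of -0.08, at muscle sums of 4702 and 12780 CPM. In that group the relation thus rested on replicate 2. Between the groups the cKO libraries had a lower contrast, while all 25 muscle genes had higher estimates in cKO, with a median log2 ratio of 1.812. The muscle sums of the groups overlapped, with control replicate 3 at 4340 CPM and cKO replicate 2 at 1463 CPM. The muscle genes rose and fell largely together over the libraries, so they are not 25 separate cases. In edgeR 0 of the muscle genes passed, with 1 at an unadjusted p under 0.05 (14.5% of all genes). Among them *Myh2* (2.64, SE 1.14), *Tnnt1* (2.38, SE 1.09) and *Mylk2* (2.28, SE 0.93) had the largest estimates. With a muscle score as a covariate in edgeR, the log2 ratio was -0.61 for *Dbp* (adjusted p = 0.0853), -0.54 for *Per3* (adjusted p = 0.106) and 0.50 for *Arntl* (adjusted p = 0.0905), and none passed. The part of muscle content in the clock values was otherwise not tested.

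Marker genes of other cell types were also compared, and only erythroid genes passed in edgeR. The part of these cell types in the clock values was not tested. Over all genes tested, 0.898% passed in edgeR and 14.5% had an unadjusted p under 0.05. The summed level of 8 macrophage genes was 825.6 to 862 CPM in the control libraries and 494.9 to 679.2 CPM in the cKO libraries. Of these genes 0 passed in edgeR, 4 had an unadjusted p under 0.05 and were lower, and *Mrc1* (-0.83), *Csf1r* (-0.64) and *Adgre1* (-0.52) had the largest log2 ratios. The other 5 included 2 with higher values, *Cd68* (0.25, SE 0.14) and *Fcgr1* (0.11, SE 0.13). Of 7 erythroid genes tested, 6 fell in edgeR (the globin genes *Hba-a1*, *Hba-a2*, *Hbb-bs* and *Hbb-bt*, the heme synthesis gene *Alas2* and *Slc4a1*), with *Hbb-bs* at -1.55 (SE 0.17, adjusted p = 0.0191) and *Alas2* at -1.58 (SE 0.21, adjusted p = 0.0315). The 4 adipocyte genes were all lower in the cKO group without passing (0 genes, 2 at an unadjusted p under 0.05), with *Lep* at -2.11 (SE 0.69), *Plin1* at -1.66 and *Adipoq* at -1.27. Of 4 endothelial genes 0 passed, and *Tek* had the largest log2 ratio at -0.33. In the tendon list 0 of 8 genes passed and 0 had an unadjusted p under 0.05, with *Egr1* and *Scx* at 0.22 and *Kera* at -0.21. No defining marker of these lists was at 0 in all libraries.

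Genes that clock factors are known to control downstream gave no common direction. Of 10 such genes 4 were higher and 6 lower, 0 passed in edgeR and 3 had an unadjusted p under 0.05 (14.5% of all genes reached that level). *Nampt*, which encodes the rate-limiting enzyme of NAD salvage, had 37.6, 39.6 and 34.4 CPM in control mice and 52.7, 43.0 and 51.2 CPM in cKO mice (log2 ratio 0.40, SE 0.10, edgeR adjusted p = 0.128). The groups of *Nampt* did not overlap. *Wee1*, a kinase that holds back mitosis, had 24.4, 24.3 and 22.7 CPM against 17.0, 22.5 and 16.6 CPM (log2 ratio -0.35, SE 0.13, edgeR adjusted p = 0.277). *Pdk4*, an inhibitor of pyruvate dehydrogenase, had the largest estimate (2.23, SE 0.75, edgeR adjusted p = 0.233). Its levels of 24.3, 4.81 and 38.4 CPM in cKO replicates 1, 2 and 3 followed the order of the muscle sums.

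*Per1* was set beside glucocorticoid-responsive and immediate early genes, since both kinds of stimulus induce it. Of 10 glucocorticoid genes, the receptor gene *Nr3c1* among them, 8 had higher values in cKO, as did 7049 of all 14261 genes tested. In edgeR 0 passed, and 4 had an unadjusted p under 0.05, of which 3 were higher (14.5% of all genes reached that level). *Fkbp5*, a chaperone gene that glucocorticoids induce, had 45.6, 43.9 and 37.0 CPM in control mice and 66.0, 62.8 and 49.3 CPM in cKO mice (log2 ratio 0.49, SE 0.13, edgeR adjusted p = 0.144). The groups of *Fkbp5* did not overlap. *Tsc22d3*, which encodes GILZ, had 40.0, 43.8 and 49.3 CPM against 73.4, 50.6 and 51.8 CPM (log2 ratio 0.40, SE 0.16, edgeR adjusted p = 0.307). *Zbtb16* had 1.01, 1.04 and 2.30 CPM against 8.97, 2.97 and 4.22 CPM (log2 ratio 1.89, SE 0.51, edgeR adjusted p = 0.159). In all 3 genes replicate 1 of the cKO group was the highest library, as for *Per1*, but the lowest cKO library was replicate 3 for *Per1* and *Fkbp5* and replicate 2 for *Tsc22d3* and *Zbtb16*. The part of glucocorticoids in the *Per1* values was not tested. The glucocorticoid receptor gene *Nr3c1*, singled out after its values were seen, had a log2 ratio of -0.25 (SE 0.07, edgeR adjusted p = 0.181). Among 12 immediate early genes 0 passed and 0 had an unadjusted p under 0.05. The largest estimates there were *Egr3* (-0.27), *Egr1* (0.22) and *Atf3* (0.21). Replicate 1 of the cKO group was also the highest library for *Fos* (57.4 CPM), *Fosb*, *Egr1* (117 CPM), *Atf3* and *Ier2*. It was not the highest for *Jun*, *Junb*, *Egr2*, *Egr3*, *Nr4a1* or *Arc*. A peak in that library was thus not particular to *Per1* and the glucocorticoid genes.

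Genes with a like pattern were sought by the root mean square difference of centred log2(CPM + 0.5) over the 6 libraries, among 14260 other genes. The nearest to *Dbp* were *Prom1* (0.033), *Jph4* (0.048), *Cldn5* (0.055), *Ddx60* (0.057) and *Opa3* (0.061), and the median over all genes was 0.280. *Per3* stood at rank 121 (0.129) and *Nr1d1* at rank 260 (0.153) in nearness to *Dbp*, whereas *Arntl* stood at rank 12809 and *Npas2* at rank 13009. For *Arntl* the nearest were *Frrs1* (0.042), *Marchf3* (0.045), *Lsp1* (0.046), *Mbnl3* (0.050) and *Rgs4* (0.059), with a median of 0.244 over all genes. *Npas2* stood at rank 128 (0.110), *Per1* at rank 175 (0.117) and *Cry1* at rank 454 (0.140), and *Clock* at rank 7685 was farther from *Arntl* than the median gene. With 6 libraries many genes share such a pattern, and these ranks are a description.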

How the data were processed

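RNA sequencing of 6 tendon samples (3 per group) was made on a BGISEQ platform, and the submitters' processing notes name build GRCm38.p6. The aligner, counting tool and strandedness are not given in the sources used here. For each of 65053 RefSeq transcripts the authors deposited an estimated count, which is not normalized, and TPM, scaled by the authors for length of transcript and library size. A further 12 per-sample columns (FPKM and normalized counts) and 8 holding averages of a group were left out.

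Estimated counts were summed per NCBI Gene and rounded, giving 18099 genes (99.72% matched to a RefSeq symbol). Groups and replicate numbers come from the labels. Testing used R 4.3.3 and edgeR 4.0.16 (TMM, filterByExpr, quasi-likelihood F test, no block, 14261 genes), with Benjamini-Hochberg adjustment over all of them and a threshold of 0.05. Standard errors are the log2 fold change over the square root of F. Exact permutation tests, two-sided, used log2(CPM + 0.5). DESeq2 1.42.0 and limma 3.58.1 were alternatives. The edgeR p-values set the difference between the groups against the spread between these samples. On simulated counts for this comparison (14145 genes), edgeR recovered 22 of 96 genes changed by 0.5 and 68 of 104 changed by 1 on the log2 scale, with 2 false calls.

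Members and lists were chosen with earlier results of these data known. Named were all members, from other lists the called genes and the 3 largest changes, the 5 genes nearest *Dbp* and *Arntl*, and *Lyz2* and *Prkaa1*. Other partners and tendon markers are named for their role, and *Npas2*, *Bhlhe40*, *Bhlhe41* and *Nr3c1* were singled out after their values were seen. Some list members are not reported here by name. Deviations from the group mean correlated at 0.130, 0.133 and 0.320 between same-numbered libraries. Control replicate 1 with cKO replicate 2 was higher (0.537), so pairing by the replicate number in the labels is not shown. The main fit used no block, and a replicate block was run as an alternative.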

Additional observations from a re-analysis of the deposited data

How the results depend on the processing

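No clock gene passed in any edgeR or limma alternative, and DESeq2 called 1 (*Per3*). *Arntl*, *Per1*, *Cry1*, *Clock*, *Nr1d1*, *Per3* and *Dbp* kept their direction in all 15 alternatives. Under a replicate block in edgeR, 0 clock genes passed (adjusted p = 0.145 for *Per3*, 0.148 for *Arntl*, 0.169 for *Dbp* and 0.223 for *Per1*) and the block changed no call among them. Control replicate 1 correlated more with cKO replicate 2 (0.537) than with its own number (0.130). Leaving out 1 mouse at a time gave log2 ratios of -0.51 to -0.32 for *Dbp* (nearest to 0 without cKO replicate 2), -0.51 to -0.30 for *Per3* and 0.24 to 0.40 for *Arntl* (both nearest to 0 without control replicate 3), and 0.23 to 0.39 for *Per1*. Over all alternatives the adjusted p lay between 0.0853 and 0.434 for *Dbp*, 0.0482 and 0.376 for *Per3*, 0.0905 and 0.538 for *Arntl* and 0.104 and 0.480 for *Per1*.

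Among partners and regulators, DESeq2 called 2 genes, and leaving out 1 mouse gave 0 to 1 (*Hlf*, without cKO replicate 2). Over all genes, the count of 128 became 688 with DESeq2, 47 with the block, 77 with the muscle score, 69 and 61 with limma on log2(TPM + 0.5) and log2(TPM + 0.1), and 8 (without control replicate 2) to 276 (without cKO replicate 2) when 1 mouse was left out. The cause was not tested.

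The genes at a log2 ratio near 0 changed sign. *Per2* was 0.00 with RLE factors, DESeq2 and the block, and ran from -0.06 to 0.09 with 1 mouse left out. *Cry2* was -0.01 with upper-quartile factors, -0.00 with at least 10 reads in every sample and -0.04 with the muscle score, and ran from -0.04 to 0.06 with 1 mouse left out. *Nr1d2* was -0.00 with upper-quartile factors and -0.10 with the muscle score, and ran from -0.06 to 0.05. The phase contrast differed by -0.33 between the groups in CPM and in TPM, and by -0.23, with overlapping groups, without *Npas2*, an alternative chosen after seeing the data. In simulated data with 3 mice a group, edgeR recovered 22 of 96 genes changed by 0.5 on the log2 scale. No smaller change was simulated, and the largest log2 ratio among the clock genes was -0.43 (*Dbp*).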
